A study of Homo sapiens with 8 samples.

Results

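The genes described here are 40 components and targets of the WNT signalling pathway, listed by name and found in the counts by matching Ensembl gene identifiers to symbols. All 40 had exactly 1 identifier among the 57773 genes counted, and 33 had enough reads to be tested. They comprise 9 WNT ligands, 2 genes for ligand secretion, 10 frizzled receptors, 2 co-receptors, 4 secreted antagonists, 4 genes of beta-catenin and its destruction complex, 4 TCF/LEF factors and 5 targets and feedback regulators. No threshold on a measured value was used to make the list, but it was drawn up with earlier results of these data known.

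RNA-seq was performed on the human embryonic stem cell (hESC) line H9, grown in mTesR1, a feeder-free medium. Total RNA was depleted of ribosomal RNA, and there were 8 libraries, 2 in each of 4 conditions. WT cells are labelled wild type with HA-tagged CHD7 and untreated. CHD7_KO cells lack the chromatin remodeler CHD7 (genotype CHD7 -/-) and were untreated. HERVH_KD cells are the WT genotype exposed for 24 h to LNA-GapmeRs, antisense oligonucleotides against transcripts of the endogenous retrovirus HERVH. HERVH_KO cells carry a deletion of 1 HERVH element on chromosome 2 and were untreated. The labels of every sample also mention 4-thiouridine for 16 h in the shared treatment text, without saying which samples received it. The edited lines were grown from picked colonies, and the labels do not say whether the 2 replicates of a condition are separate clones, cultures or preparations, so the p-values below measure only the spread between these libraries. WT cells had received no control oligonucleotide, so that oligonucleotide, transfection and HERVH loss cannot be told apart in HERVH_KD.

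In canonical WNT signalling, a secreted WNT protein binds a frizzled receptor together with LRP5 or LRP6, which stops the destruction complex of APC, AXIN1 and GSK3B from marking beta-catenin (CTNNB1) for degradation. Beta-catenin then enters the nucleus and joins TCF/LEF factors at target genes such as AXIN2, SP5 and NKD1, several of which restrain the pathway again. In hESCs, WNT signalling is known for driving exit toward primitive streak fates when it is high, while secreted antagonists such as SFRP1 keep ligands from their receptors.

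The WNT genes were searched for sites complementary to the GapmeRs, which are shown because they define the knockdown. Their sequences, 16 nucleotides each and read 5′ to 3′ from the study's oligonucleotide list, are:
SHHERVH_3: ggaagatttgggacga
SHHERVH_4: attgggacctagctcg
SHHERVH_12: atgtggagtgggtagc
They matched GRCh37 without mismatch at 246, 244 and 621 places, respectively. None of the 33 tested WNT genes contained, between its annotated start and end, a sense-strand site complementary to a GapmeR with at most 2 mismatches. Among all 22744 tested genes with a position, 542 (2.38%) contained one, and 63 (0.277%) contained a perfect one.

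A further set of sequences shows a core motif that TCF/LEF factors are known to bind, CTTTG followed by AA, AT, TA or TT, searched on both strands of RefSeq promoter windows (GRCh38.p14, 250 bases before to 50 after the start). Of 27 WNT genes with a window, 5 had such a match in 1 or more windows, and 5 of their 36 windows (13.9%) held one, against 4829 of all 35116 windows (13.8%). The 5 stretches are given 5′ to 3′ on the strand of the gene, with the match in capitals. SP5, a direct target of beta-catenin, held 3 matches, starting 148, 109 and 84 bases before its start. DKK1, a target that blocks LRP5 and LRP6, held 2, at 95 and 76 bases.
SP5, chr2:170715177-170715271, plus strand: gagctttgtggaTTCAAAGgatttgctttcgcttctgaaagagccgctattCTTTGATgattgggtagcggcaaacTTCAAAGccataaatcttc
DKK1, chr10:52314174-52314223, plus strand: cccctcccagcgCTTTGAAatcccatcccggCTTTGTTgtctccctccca
TCF7, chr5:134123556-134123586, plus strand: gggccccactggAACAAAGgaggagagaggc
TCF7L2, chr10:113126488-113126518, plus strand: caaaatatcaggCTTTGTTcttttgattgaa
WNT3, chr17:46818657-46818683, minus strand: ctcaagtggaCTTTGTTccaactattg
The match of WNT3 begins 19 bases after its annotated start. A match is a description of the sequence and not a bound site.

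The libraries had 14802049 to 23156445 reads on genes, with the fewest in HERVH_KD replicate 2. In that library, the 10 most abundant genes took 8.87% of the reads, against 4.09% to 5.08% in the others. The HERVH_KD replicates also differed from each other by GC content: replicate 2 minus replicate 1 had a median of -0.36 (log2 CPM) among genes of the lowest quintile of exonic GC and 0.66 in the highest quintile. The median SD between replicates was 0.254 in HERVH_KD, 0.125 in WT, 0.111 in CHD7_KO and 0.0821 in HERVH_KO. CHD7 itself had 651.0 and 649.5 CPM (counts scaled to a common library size by TMM) in WT and 197.3 and 197.2 CPM in CHD7_KO. ESRG, a transcript that contains a HERVH element, had 467.9 and 336.6 CPM in WT and 170.4 and 158.4 CPM in HERVH_KD. All 8 hESC markers examined, POU5F1, SOX2 and NANOG among them, were abundant, with a summed level of 6435 to 7568 CPM, and none passed an FDR of 0.05 in any comparison with WT by edgeR (1 at an unadjusted p below 0.05, in HERVH_KD).

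WT hESCs transcribed the receiving side of the pathway and the SFRP antagonist strongly and most ligands and early targets weakly. Levels are compared between genes here as RPKM, CPM divided by the summed annotated exon length. That length merges the exons of all annotated transcripts, 11759 bases for CTNNB1 and 4587 bases for FZD7. The order of genes depends on it, as the mean CPM of CTNNB1 in WT, 756.9, was above the 494.0 of FZD7. SFRP1 was the highest of the 40 genes at 251.6 ± 0.725 RPKM (SD, n = 2). The receptor FZD7 followed at 107.7 ± 7.27 RPKM, then CTNNB1 at 64.4 ± 3.27 RPKM and the repressive TCF factor TCF7L1 at 37.1 ± 0.125 RPKM. The next 2, FZD2 at 26.1 ± 6.28 RPKM and LRP6 at 24.7 ± 0.668 RPKM, did not differ beyond their spread, and neither did FZD5 at 17.8 ± 2.79 RPKM and LRP5 at 16.2 ± 0.704 RPKM. FZD7 made up 58.2% to 71.4% of the summed RPKM of the 10 frizzled receptors in the 8 libraries, so that it was the main frizzled transcript in all 4 conditions.

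Below these came FZD3, AXIN1, APC, ZNRF3, TCF7L2, GSK3B, FZD6 and FZD8, from 11.4 down to 4.53 RPKM in WT. AXIN2, the feedback scaffold that is widely used as a readout of beta-catenin activity, reached 3.25 ± 0.377 RPKM. The most abundant ligand was WNT5A, which acts largely outside the beta-catenin branch, at 2.87 ± 0.153 RPKM. PORCN, the enzyme that adds the lipid WNT proteins need for secretion, stood at 1.87 ± 0.0735 RPKM, and WLS, the carrier that takes them to the cell surface, at 0.525 ± 0.238 RPKM. The ligands WNT3, WNT4, WNT5B and WNT8B lay between 0.497 and 0.855 RPKM in WT. LEF1, FZD10, RNF43 and NKD1 lay between 0.230 and 0.290 RPKM, and FZD1 at 0.482 RPKM. FZD9, TCF7, FZD4 and DKK3 lay between 1.74 and 2.87 RPKM.

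The 7 genes too low to test were WNT3A, WNT6, WNT7A, WNT11, DKK1, DKK4 and SP5. WNT6 had 0 counts in all 8 libraries, which allows up to 3 counts, or 0.128 to 0.218 CPM depending on the library, counting error only. WNT7A and DKK4 had at most 2 counts in any library. WNT3A had at most 11 counts, WNT11 and DKK1 at most 12, and SP5 at most 15. SP5 and DKK1, whose promoter windows held the most TCF/LEF letters, were thus both near the detection limit in every condition.

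**Figure D1:**
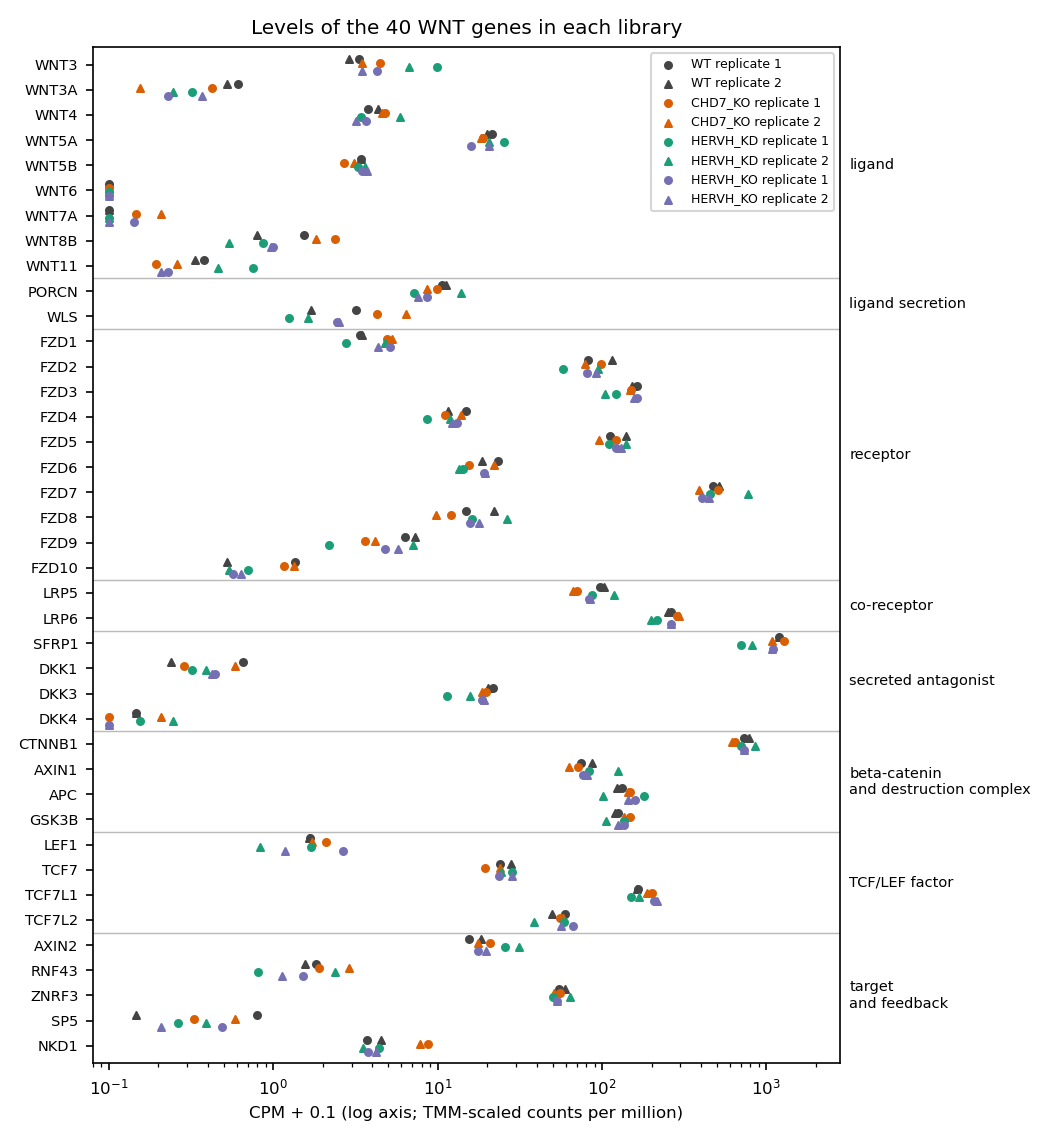
The horizontal axis is the level in CPM plus 0.1 on a log axis, and each row is 1 of the 40 genes, grouped by role; circles are replicate 1 and triangles replicate 2 of each condition. SFRP1, CTNNB1 and FZD7 lie at the right in all libraries, WNT6 lies at 0 throughout, and the HERVH_KD points of WNT3 and SFRP1 stand apart from the others.

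Each condition was compared with WT to ask whether loss of CHD7, HERVH knockdown or deletion of the single HERVH element altered the pathway's transcripts. The 3 comparisons share the 2 WT libraries. A DEG was defined by an FDR below 0.01 and at least a 2-fold change, and changes at an FDR below 0.05 without a minimum fold were recorded as well (edgeR quasi-likelihood test, Benjamini-Hochberg over 23474 genes). None of the 33 tested WNT genes was a DEG in any of the 3 comparisons by edgeR. An unadjusted p below 0.05 was held by 4 in CHD7_KO, 7 in HERVH_KD and 1 in HERVH_KO. Of all 23474 genes, 10.9% in CHD7_KO, 19.0% in HERVH_KD and 2.63% in HERVH_KO had such a p. By DESeq2, WNT3 was 1 DEG in HERVH_KD, where 373 of 23474 genes were DEGs. By edgeR, the share of DEGs among all genes tested was 0.571% in CHD7_KO, 0.217% in HERVH_KD and 0.0298% in HERVH_KO.

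At an FDR below 0.05, WNT3 rose and SFRP1 fell in HERVH_KD, which makes 2 of 33 genes (6.06%) against 2.15% of all genes (0.618% higher and 1.53% lower). In CHD7_KO, 0 of 33 passed against 1.81% of all genes, with 4 at an unadjusted p below 0.05 and 1 by DESeq2 (NKD1, against 728 of 23474 genes). In HERVH_KO, 0 of 33 passed against 0.0724% of all genes, with 1 at an unadjusted p below 0.05 and 0 by DESeq2. The median log2 fold change of the 33 genes was -0.07 in CHD7_KO, -0.05 in HERVH_KD and -0.05 in HERVH_KO, and that of all genes was -0.01, 0.04 and -0.02. In bulk RNA, fewer cells of a type and less RNA per cell cannot be told apart in any of these values.

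**Figure D2:**
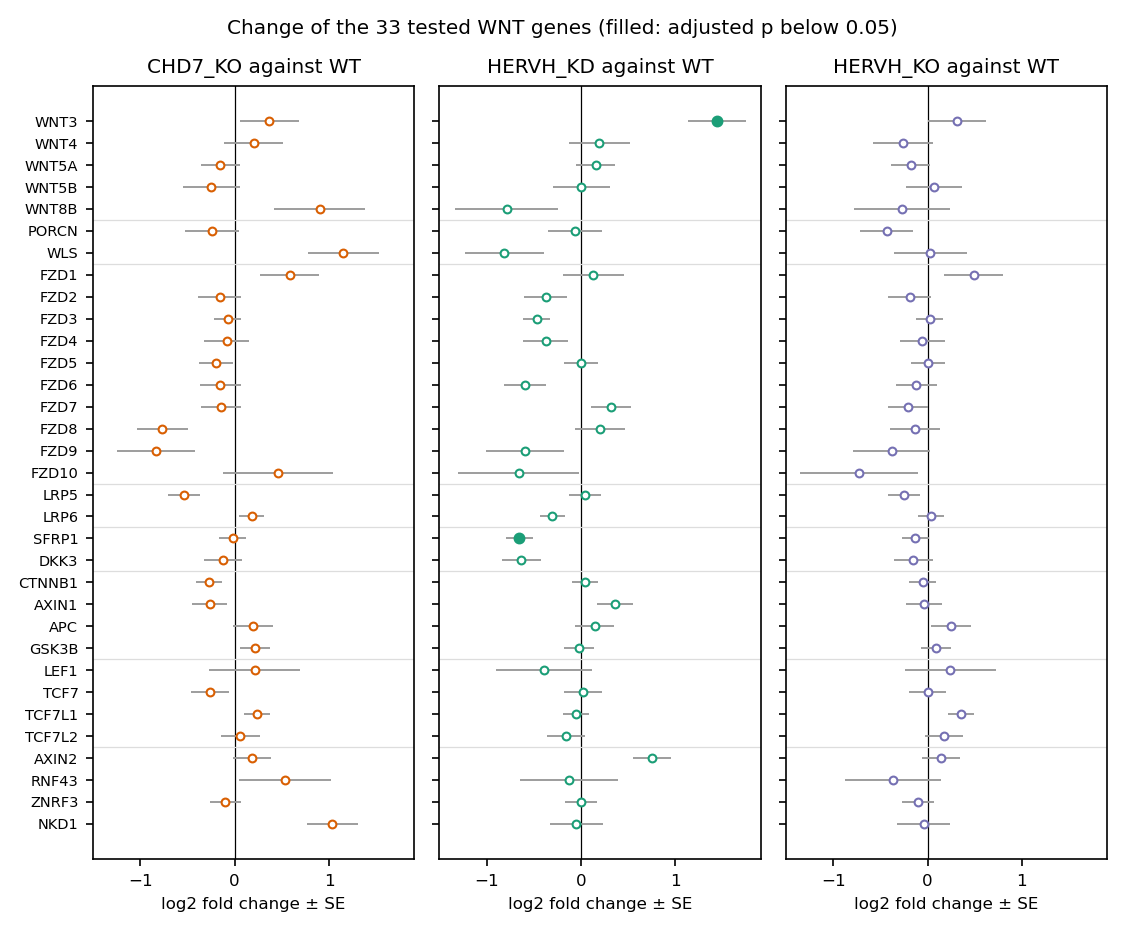
Each panel gives the log2 fold change against WT (horizontal axis, with its SE) of the 33 tested genes in the order of their roles; filled points have an FDR below 0.05. Only WNT3 and SFRP1 in HERVH_KD are filled, and the HERVH_KO points lie closest to 0, from -0.72 for FZD10 to 0.49 for FZD1.

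Among the ligands, WNT3, which drives primitive streak formation in the embryo, was higher after HERVH knockdown. The gene lies on chromosome 17 (GRCh37, 44839872 to 44910520, minus strand). It had 3.23 and 2.81 CPM in WT, 4.39 and 3.39 CPM in CHD7_KO, 9.75 and 6.63 CPM in HERVH_KD and 4.15 and 3.35 CPM in HERVH_KO. Both HERVH_KD libraries were above all 6 others. The counts behind these levels were 178 and 91 in HERVH_KD and 60 to 97 elsewhere. The log2 fold change in HERVH_KD was 1.44 (SE 0.31, FDR = 0.0303), a 2.72-fold rise. In a fit of the 4 libraries compared, WNT3 did not pass an FDR of 0.05, where 57 of 21658 genes did. The rise was 1.68 (FDR = 0.00144) without HERVH_KD replicate 2 and 1.08 (FDR = 0.0294) without replicate 1. Its FDR was 0.244 without WT replicate 1, 0.129 without WT replicate 2, and 0.0534 and 0.0502 without CHD7_KO replicate 1 and 2, with log2 fold changes of 1.34 to 1.55 in these fits.

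The other 4 ligands tested did not pass. WNT5A had 19.7 to 21.3 CPM in WT and 15.8 to 25.1 CPM in the other 6 libraries. WNT4 and WNT5B each stayed within 2.59 to 5.83 CPM. WNT8B, a forebrain ligand, had 1.43 and 0.70 CPM in WT, 2.26 and 1.72 CPM in CHD7_KO, 0.77 and 0.44 CPM in HERVH_KD and 0.90 and 0.86 CPM in HERVH_KO. Its log2 fold change of 0.90 in CHD7_KO (SE 0.48, FDR = 0.571) and -0.79 in HERVH_KD (SE 0.55, FDR = 0.459) rested on 6 to 49 counts per library.

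Of the secretion genes, WLS was highest in CHD7_KO and lowest in HERVH_KD. It had 3.09 and 1.59 CPM in WT, 4.16 and 6.29 CPM in CHD7_KO, 1.15 and 1.53 CPM in HERVH_KD and 2.35 and 2.43 CPM in HERVH_KO. The log2 fold change was 1.15 in CHD7_KO (SE 0.38, FDR = 0.182) and -0.82 in HERVH_KD (SE 0.42, FDR = 0.310) and neither passed against WT. The CHD7_KO value was 1.74 without WT replicate 1 and 0.75 without WT replicate 2, and its FDR was 0.0420 and 0.0456 without HERVH_KD replicate 1 and 2. GNG12-AS1, which had at most 33 counts in any library, overlaps WLS. PORCN had 10.5 and 11.1 CPM in WT and 8.51 and 7.499 CPM in HERVH_KO, where its log2 fold change was -0.43 (SE 0.28, FDR = 1). It had 9.80 and 8.499 CPM in CHD7_KO and 7.12 and 13.8 CPM in HERVH_KD, whose replicates spanned all other values.

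All 10 frizzled receptors were tested and none passed in any comparison with WT in the main fit of all 8 libraries. In HERVH_KD, 7 were lower and 3 higher, with a median log2 fold change of -0.38, against 0.04 for all genes, of which 52.9% were higher. The split was like this in the other conditions, with 8 lower and 2 higher in CHD7_KO (median -0.15). In HERVH_KO, 7 were lower and 3 higher (median -0.13). Of all genes, 48.5% were higher in CHD7_KO and 46.9% in HERVH_KO. FZD3, the receptor best known from axon guidance, had 121.5 and 104.7 CPM in HERVH_KD and 162.6 and 151.1 CPM in WT, and its change on the log2 scale was -0.47 (SE 0.14, FDR = 0.108). FZD6 had 23.0 and 18.5 CPM in WT and 14.2 and 13.3 CPM in HERVH_KD, a change of -0.59 (SE 0.22, FDR = 0.170). The HERVH_KD libraries were below both WT libraries for each of these 2 genes.

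In CHD7_KO, FZD8 had 11.9 and 9.68 CPM where WT had 14.7 and 22.03 CPM, which gave a change of -0.77 on the log2 scale (SE 0.27, FDR = 0.235). It passed an FDR of 0.05 in a fit of the 4 libraries compared, where 1285 of 22205 genes did. FZD9 had 3.51 and 4.03 CPM, below the 6.23 and 7.20 CPM of WT, a change of -0.83 (SE 0.41, FDR = 0.506). FZD1 was at 4.81 and 5.16 CPM in CHD7_KO, 5.04 and 4.26 CPM in HERVH_KO and 3.28 and 3.37 CPM in WT, and its change of 0.49 in HERVH_KO (SE 0.31, FDR = 1) did not pass. In HERVH_KD it had 2.68 and 4.66 CPM. FZD5 and FZD7 lie on chromosome 2, as the deleted HERVH element does, and their log2 fold changes in HERVH_KO were 0.0047 (SE 0.18) and -0.21 (SE 0.21). TCF7L1 lies on the same chromosome, farther from the element than FZD5 and FZD7, and was higher in HERVH_KO without passing (0.36, SE 0.14, FDR = 1). It was higher in CHD7_KO as well, also without passing (0.24, SE 0.14).

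Neither co-receptor passed in a comparison with WT. LRP5 had 96.8 and 102.9 CPM in WT, 70.7 and 66.7 CPM in CHD7_KO, 87.1 and 118.6 CPM in HERVH_KD and 83.2 and 84.5 CPM in HERVH_KO. Both CHD7_KO libraries were the lowest of the 8, with a log2 fold change of -0.54 (SE 0.17, FDR = 0.153). The FDR was 0.00473 or 0.00357 when HERVH_KD replicate 1 or 2 was left out of the fit, with a log2 fold change of -0.53 or -0.54, and it was 0.0147 in a fit of the 4 libraries compared. With GC correction the log2 fold change was -0.36 (FDR = 0.188). LRP6, with 251.4 to 261.2 CPM in WT, had 285.9 and 294.3 CPM in CHD7_KO and 215.4 and 199.6 CPM in HERVH_KD, with changes of 0.18 (FDR = 0.753) and -0.30 (FDR = 0.237).

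The secreted antagonist SFRP1, which binds WNT ligands outside the cell, fell in HERVH_KD. It lies on chromosome 8 (GRCh37, 41119481 to 41166992, minus strand). It had 1193 and 1188 CPM in WT, 1275 and 1074 CPM in CHD7_KO, 696.2 and 817.2 CPM in HERVH_KD and 1098 and 1081 CPM in HERVH_KO. Both HERVH_KD libraries were below all 6 others, from 11220 to 12716 counts per library. The log2 fold change was -0.65 (SE 0.14, FDR = 0.0326), a 1.57-fold fall. Its mean level per length in HERVH_KD, 159.9 RPKM against 133.9 RPKM for FZD7, was still the highest of the 40 genes. In CPM its mean there, 756.7, was below the 779.8 of CTNNB1. The fall was -0.78 (FDR = 0.000285) without HERVH_KD replicate 2 and -0.59 (FDR = 0.00238) without replicate 1. Its FDR was 0.290 and 0.102 without WT replicate 1 and 2, and 0.0692 and 0.0570 without HERVH_KO replicate 1 and 2, with a log2 fold change of -0.65 to -0.69.

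DKK3, a divergent member of the Dickkopf family, had 21.5 and 20.2 CPM in WT and 11.3 and 15.6 CPM in HERVH_KD, a log2 fold change of -0.63 (SE 0.21, FDR = 0.129). It is overlapped on the opposite strand by USP47, which had up to 1938 counts.

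**Figure D3:**
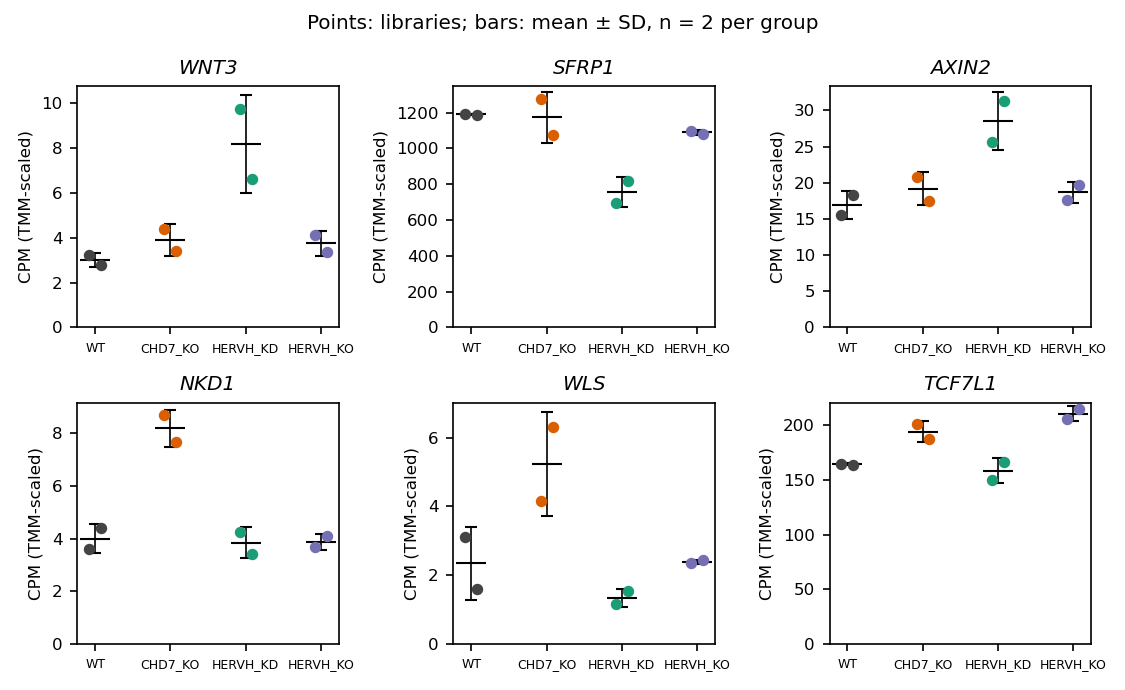
Levels in CPM (vertical axis, from 0) of 6 WNT genes in the 4 conditions, with points for libraries and bars for the mean and SD of 2 replicates. The HERVH_KD points of WNT3 and AXIN2 lie above all others and those of SFRP1 below, the CHD7_KO points of NKD1 and WLS lie highest, and the HERVH_KO points of TCF7L1 lie at 205.8 and 215.4 CPM.

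Beta-catenin and its destruction complex stayed near WT. CTNNB1 had 729.8 and 784.1 CPM in WT, 639.4 and 614.1 CPM in CHD7_KO, 703.0 and 856.6 CPM in HERVH_KD and 726.2 and 733.3 CPM in HERVH_KO. The CHD7_KO libraries were the lowest, with a log2 fold change of -0.27 (SE 0.14, FDR = 0.536). AXIN1, APC and GSK3B changed by between -0.27 and 0.36 on the log2 scale in the 3 comparisons, none of which passed. APC differed widely between the HERVH_KD replicates, at 179.9 and 101.7 CPM.

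The TCF/LEF factors did not pass in any comparison with WT. TCF7L1, the member known as a repressor in hESCs, lies on chromosome 2 (GRCh37, 85360515 to 85537510, plus strand). It had 165.0 and 164.2 CPM in WT, 201.4 and 187.3 CPM in CHD7_KO, 150.3 and 166.8 CPM in HERVH_KD and 205.8 and 215.4 CPM in HERVH_KO. Its log2 fold change in HERVH_KO, 0.36 (SE 0.14), ranked first by p of the 33 genes in that comparison and had an FDR of 1. LEF1, a factor that is itself a WNT target, stayed between 10 and 60 counts. TCF7 is overlapped on the opposite strand by SKP1, which had up to 2814 counts.

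Of the feedback genes and targets, AXIN2 was higher in HERVH_KD and NKD1 in CHD7_KO, and neither passed the FDR threshold. AXIN2 had 15.5 and 18.3 CPM in WT, 20.8 and 17.5 CPM in CHD7_KO, 25.7 and 31.3 CPM in HERVH_KD and 17.6 and 19.7 CPM in HERVH_KO. Both HERVH_KD libraries were above the other 6. The log2 fold change was 0.75 (SE 0.20, FDR = 0.0699), a ratio of 1.68. Its FDR was 0.0154 after correction for GC content, 0.0177 by DESeq2 and 0.00593 without HERVH_KD replicate 1, and it ranged from 0.00593 to 0.575 over all alternatives.

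None of the other targets among the 40 genes passed in HERVH_KD. ZNRF3, a membrane ubiquitin ligase that removes frizzled receptors, had 54.4 and 59.8 CPM in WT and 50.5 and 63.4 CPM in HERVH_KD. Its homologue RNF43 had 0.71 and 2.26 CPM in HERVH_KD, on either side of the WT values of 1.71 and 1.45 CPM, with a log2 fold change of -0.13 and a wide SE of 0.52. NKD1 had 4.27 and 3.42 CPM in HERVH_KD against 3.60 and 4.40 CPM in WT, and SP5, with 3 and 4 counts, could not be tested.

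NKD1, which binds Dishevelled and dampens the signal, lies on chromosome 16 (GRCh37, 50582307 to 50683160, plus strand). It had 8.69 and 7.69 CPM in CHD7_KO and 3.42 to 4.40 CPM in the 6 other libraries, so the groups did not overlap. Its log2 fold change in CHD7_KO was 1.03 (SE 0.27, FDR = 0.0810), a ratio of 2.05. The FDR was 0.00903 and 0.00992 without HERVH_KD replicate 1 and 2, which makes NKD1 a DEG in those fits, 0.0240 with GC correction, 0.0171 in a fit of the 4 libraries compared and 0.0333 by DESeq2. The nearest neighbours of NKD1 were higher in CHD7_KO as well. Of the 6 other genes with a mean log2 CPM over 2 that start within 1 Mb of it, 5 were higher, with a median log2 fold change of 1.03, against 0.17 for the same genes in HERVH_KO. The 22 genes at 1 to 5 Mb had a median of 0.02, with 12 higher, and the 32 genes at 5 to 10 Mb a median of -0.10. The first of these medians covers runs of successive genes in both directions. Those at 1.89 to 3.05 Mb from NKD1 changed by 0.70 to 1.12 in CHD7_KO and -0.16 to 0.34 in HERVH_KO. Those at -3.97 to -3.47 Mb changed by -0.79 to -0.22 in CHD7_KO and -0.26 to 0.39 in HERVH_KO. Over all 28 genes within 5 Mb the median was 0.09. A change of the region and a change of NKD1 alone cannot be told apart from the level of NKD1. WNT3A, which was too low to test, also lies among genes that were higher in CHD7_KO, with a median of 0.34 over 67 genes within 5 Mb.

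**Figure D4:**
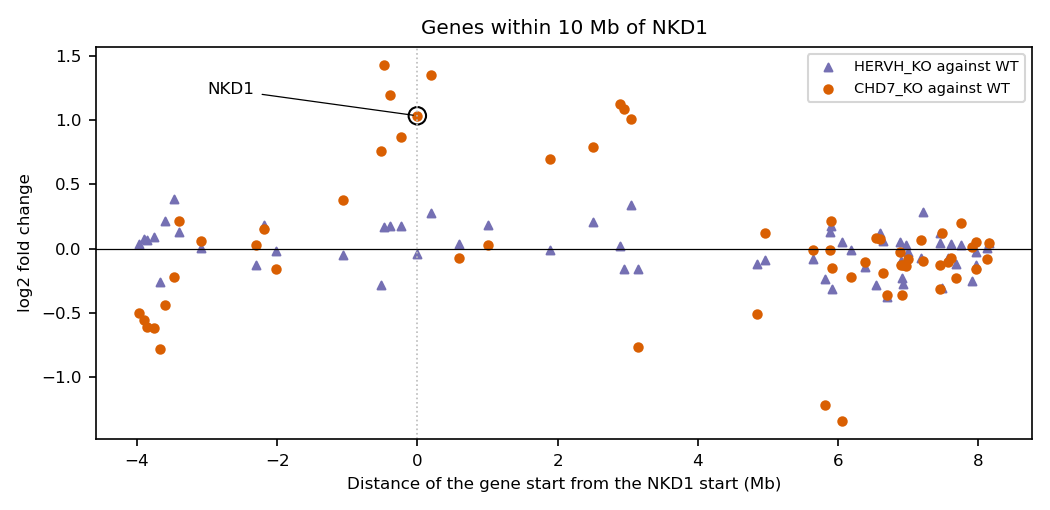
Log2 fold change (vertical axis) for genes whose mean log2 CPM exceeds 2, by the distance of their start from that of NKD1 in Mb; circles are CHD7_KO and triangles HERVH_KO, both against WT. NKD1 (ringed, 1.03) lies near 5 higher genes within 1 Mb in CHD7_KO, genes farther out lie on both sides of 0, and NKD1 lies at -0.04 in HERVH_KO.

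The conditions were also compared with each other, since an effect past the threshold in one condition alone does not show that the conditions differ. Between HERVH_KD and CHD7_KO, 7 of 33 WNT genes differed at an FDR below 0.05 (21.2%), where 9.44% of all genes did. WLS was 3.91-fold lower in HERVH_KD than in CHD7_KO (log2 fold change -1.97, SE 0.41, FDR = 0.00966), SFRP1 was lower by -0.63 (SE 0.14, FDR = 0.0142), NKD1 by -1.08 (SE 0.28, FDR = 0.0281) and LRP6 by -0.48 (SE 0.13, FDR = 0.0392). WNT3 was higher in HERVH_KD by 1.07 (SE 0.30, FDR = 0.0402), FZD8 by 0.97 (SE 0.27, FDR = 0.0402) and LRP5 by 0.58 (SE 0.17, FDR = 0.0459). Each of the 7 missed the threshold in at least 1 fit that left out a library, and 2 of them missed it with GC correction, LRP5 at 0.27 (FDR = 0.209) and LRP6 at -0.33 (FDR = 0.0815). FZD8 missed it with GC correction and the replicate number as a block (0.57, FDR = 0.0545). The count fell without a CHD7_KO, WT or HERVH_KO library and rose without HERVH_KD replicate 1. The number of all genes passing moved the same way in these fits. Without HERVH_KD replicate 2, the count of WNT genes fell while that of all genes rose. DESeq2 was not run on comparisons between these conditions.

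Between HERVH_KD and HERVH_KO, 0 of 33 passed (background 1.33%), with 8 at an unadjusted p below 0.05, where 19.1% of all genes had one. Among the 8 were WNT3 (log2 fold change 1.13, FDR = 0.0799) and SFRP1 (-0.53, FDR = 0.0814). The rise of WNT3 and the fall of SFRP1 after knockdown are therefore not shown to differ from their values in the element deletion in the main fit. Both passed without the expression filter, where 1483 of 42395 genes did, and with GC correction in the replicate block, where 1096 of 23474 did. They also passed with a crossed replicate block. Neither passed with RLE scaling, the stricter filter or the replicate block alone, and only SFRP1 of the 2 passed with GC correction alone. Between CHD7_KO and HERVH_KO, 0 of 33 passed (background 2.66%), with 4 at an unadjusted p below 0.05, NKD1 first (1.08, FDR = 0.0560). An unadjusted p below 0.05 was held by 12.2% of all genes there.

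The GC difference between the HERVH_KD replicates bears on the WNT genes as it does on others. Across 12480 genes, the difference between replicate 2 and replicate 1 had a Spearman correlation of 0.72 with exonic GC, a description over genes measured in the same 2 libraries. FZD9, with 68.5% exonic GC, differed by 1.70 on the log2 scale, where genes of like GC had a median of 1.21. WNT3 differed by -0.55, against a median of 0.28 for 767 genes within 1 percentage point of its GC content of 53.1%. SFRP1 differed by 0.23 against 0.11. With GC correction, the log2 fold change in HERVH_KD was 1.42 for WNT3 (FDR = 0.00705) and -0.69 for SFRP1 (FDR = 0.00371), and DKK3, FZD9 and AXIN2 then passed an FDR of 0.05 as well. In that fit 1980 of 23474 genes passed, against 504 without the correction.

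**Figure D5:**
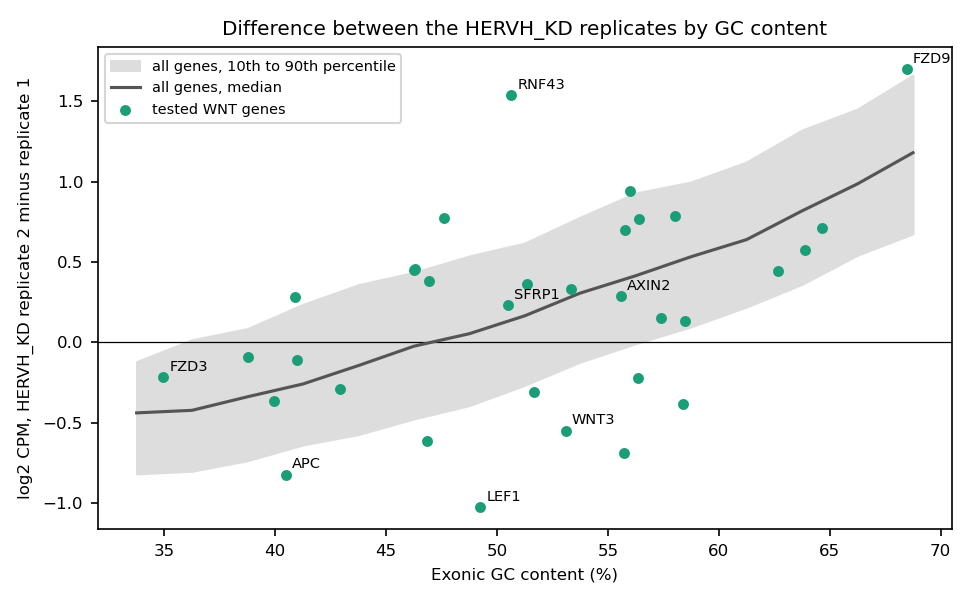
Difference in log2 CPM between HERVH_KD replicate 2 and replicate 1 (vertical axis) against exonic GC content in percent (horizontal axis), with the median and the central range of all genes and points for the 33 tested WNT genes. The median of all genes rises with GC, FZD9 lies at the upper right, and WNT3, APC and LEF1 lie below the genes of like GC.

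A further 65 genes of the pathway were examined, of which 55 were tested. They include SFRP2, an antagonist at 284.1 ± 38.8 RPKM in WT, as high as SFRP1 within that spread, and ROR1, a receptor for WNT5A, at 28.0 ± 1.06 RPKM. In CPM, SFRP2 was below SFRP1 in WT, with means of 567.0 and 1191. In HERVH_KD, 0 rose and 1 fell by edgeR (1.82% of those tested), and by DESeq2 2 fell, KREMEN1 and APC2, a homologue of APC. Of all 23474 genes, 504 passed by edgeR there and 1260 by DESeq2. The gene called by both was KREMEN1, a receptor for Dickkopf proteins, with 10.5 and 9.87 CPM in WT and 3.39 and 5.39 CPM in HERVH_KD (log2 fold change -1.23, SE 0.28, FDR = 0.0374). In CHD7_KO 0 of 55 passed by edgeR, with 9 at an unadjusted p below 0.05 and 1 by DESeq2 (VANGL2). In HERVH_KO 0 of 55 passed, with 1 at an unadjusted p below 0.05 and 0 by DESeq2. Of all 23474 genes, 10.9% in CHD7_KO and 2.63% in HERVH_KO had such a p, and 728 passed by DESeq2 in CHD7_KO. WIF1, a secreted antagonist, had 5.36 and 5.43 CPM in CHD7_KO against 2.12 and 2.85 CPM in WT (log2 fold change 1.12, FDR = 0.133), and VANGL2, of the planar cell polarity branch, changed by 0.53 (FDR = 0.0976). VANGL2 lies on chromosome 1, as WNT3A does, and the genes around it were not examined. RSPO3, which amplifies WNT signals, had 14 and 12 counts in HERVH_KO and 0 to 4 counts elsewhere (FDR = 1).

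Of 16 further WNT targets, 13 were tested. EPHB2, a receptor kinase controlled by beta-catenin in the gut, fell in HERVH_KD, to 18.5 and 22.8 CPM from the 40.4 and 50.4 CPM of WT (log2 fold change -1.14, SE 0.19, FDR = 0.0133), and the other 12 did not pass by edgeR. By DESeq2, EPHB2 fell and MYC rose, where 1260 of all 23474 genes passed. MYC had 44.01 and 59.02 CPM in WT, 75.4 and 76.0 CPM in CHD7_KO and 86.0 and 73.3 CPM in HERVH_KD, with FDR = 0.159 and 0.0782. In CHD7_KO 0 of 13 passed by edgeR, with 5 at an unadjusted p below 0.05 and 1 by DESeq2 (SP8). In HERVH_KO 0 of 13 passed, with 2 at an unadjusted p below 0.05 and 0 by DESeq2. Of all 23474 genes, 10.9% in CHD7_KO and 2.63% in HERVH_KO had such a p, and 728 passed by DESeq2 in CHD7_KO.

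Markers of other cell types were measured in the same libraries. The 6 primitive streak and mesoderm markers, TBXT and MIXL1 among them, summed to 1.87 to 3.32 CPM in WT and 2.40 to 2.46 CPM in HERVH_KD, where WNT3 rose. TBXT, a direct target of WNT in the streak, had at most 10 counts in any library. Of the neural markers, NES (log2 fold change 0.96, FDR = 0.0474) and TUBB3 (1.65, FDR = 0.0366) rose in HERVH_KD, and the 5 examined summed to 411.3 to 752.8 CPM there against 278.2 to 314.6 CPM in WT and 474.6 to 609.4 CPM in CHD7_KO, nearly all from NES. PAX6 had 1.53 and 0.95 CPM in HERVH_KD and 1.75 and 1.68 CPM in WT (-0.45, FDR = 0.658). SOX1 and NEUROG2 in that list were too low to test. Of the endoderm markers, FOXA2 fell in CHD7_KO (-2.64, FDR = 0.0317) and had 10.3 and 9.69 CPM in HERVH_KD against 1.39 and 4.96 CPM in WT (FDR = 0.0719), and SOX17, GATA4 and GATA6 had at most 4 counts. AFP had a log2 fold change of 1.68 (FDR = 0.113) and CXCR4 of -1.20 (FDR = 0.151) in HERVH_KD. The endoderm list summed to 13.0 to 13.4 CPM in HERVH_KD and 5.08 to 7.997 CPM in WT, with FOXA2 the largest part in HERVH_KD. The trophoblast and amnion markers summed to 2.85 to 6.63 CPM in HERVH_KD and 6.74 to 7.30 CPM in WT, and CGA had 0 counts in all libraries. The fibroblast markers summed to 173.4 to 467.4 CPM in HERVH_KD and 182.3 to 210.1 CPM in WT, nearly all from COL1A1 and COL1A2, and LUM had 0 counts. The part of such cells in the values of WNT3, SFRP1 or AXIN2 was not tested.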

How the data were processed

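Libraries were grouped by the sample labels. The authors prepared strand-specific, rRNA-depleted libraries, used STAR for mapping (hg19) and HTSeq for counting per Ensembl gene. The deposited values are these raw counts. Summary lines that name no gene were left out, and reads on no feature made up 34.9% to 42.5% of the reads on genes, on no feature and on ambiguous positions together. Tool versions and the strand setting of the counting are not given in the sources used here, and 22 of the 40 WNT genes overlap an annotated gene on the opposite strand, so reads of such pairs may be shared.

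From the counts, all values were computed with R 4.3.3, edgeR 4.0.16, DESeq2 1.42.0, limma 3.58.1 and Python 3.11.15. Positions and exon lengths came from a GENCODE annotation on GRCh37, which placed 55538 of 57773 genes. Counts were scaled by TMM, filtered by filterByExpr (23474 genes) and tested by edgeR's quasi-likelihood test in 1 fit of all 8 libraries with group as factor (4 residual degrees of freedom). The fit was checked on simulated counts. Log2 CPM used a prior count of 2. Full values are given for WNT genes with an FDR below 0.05 and for the 3 with the smallest p in each comparison with WT. Of the further pathway genes and targets, up to 8 with the smallest p per comparison were candidates for naming. Others, singled out for their role or level, were chosen after their values were seen. The members and lists were chosen with earlier results of these data known. Of the neural marker list, 1 gene is not reported here. Alternatives were RLE scaling, DESeq2, 2 other expression filters, a fit of 4 libraries, the replicate number as a block, GC correction (loess, span 0.3), other thresholds, centring on neighbouring genes within 5 Mb and each library left out. With 3 counts as the floor, intervals and floors cover counting error only.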

Additional observations from a re-analysis of the deposited data

How the results depend on the processing

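The direction of WNT3 and SFRP1 in HERVH_KD was the same under all alternatives run, with log2 fold changes of 1.08 to 1.68 and -0.78 to -0.58, and each passed an FDR of 0.05 in 12 of the 17 alternatives that give a test. No WNT gene passed in HERVH_KO under any alternative. The number of DEGs among the WNT genes in HERVH_KD was 1 without an expression filter, with GC correction, with the replicate block with GC correction, by DESeq2 and with an FDR below 0.05 and at least 2-fold. DEGs among all genes numbered 506 of 42395 without the filter. Of 23474 genes they numbered 381 with GC correction, 348 with the block added and 373 by DESeq2, against 51 in the main fit. The number at an FDR below 0.05 in HERVH_KD was 5 with GC correction, 4 with GC correction in the replicate block and 0 in the fit of the 4 libraries compared. All genes passing numbered 1980 of 23474, 1858 of 23474 and 57 of 21658 in these fits, against 504 of 23474 in the main fit. In CHD7_KO it was 1 with GC correction, with both, and by DESeq2, and 3 in the 4-library fit. All genes passing there numbered 1032, 974 and 728 of 23474 and 1285 of 22205, against 424 of 23474 in the main fit. Between HERVH_KD and HERVH_KO it was 3 without a filter, 2 with GC correction and 3 with the block added, and between CHD7_KO and HERVH_KO it was 1 in each. For HERVH_KD and HERVH_KO, all genes passing numbered 1483 of 42395, then 1171 and 1096 of 23474, against 313 in the main fit. For CHD7_KO and HERVH_KO they numbered 1052 of 42395, then 1247 and 1214 of 23474, against 624 in the main fit. The cause was not tested.

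Leaving out 1 library at a time, the DEGs numbered 0 to 1 in CHD7_KO, 0 to 2 in HERVH_KD and 0 to 0 in HERVH_KO. WNT genes at an FDR below 0.05 numbered 0 to 5 in CHD7_KO, 0 to 8 in HERVH_KD, 0 to 11 between HERVH_KD and HERVH_KO, 0 to 2 between CHD7_KO and HERVH_KO and 1 to 16 between HERVH_KD and CHD7_KO. In each of these comparisons, the number of WNT genes was highest without a HERVH_KD library. The number of all genes passing in these comparisons was also highest without a HERVH_KD library. In HERVH_KD both numbers were lowest without a WT library, and between HERVH_KD and CHD7_KO without a CHD7_KO library. The range of WNT genes passing is therefore not a result particular to them. An arm left with 1 library was assumed to vary like the others.

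The labels do not say that a replicate number marks a shared batch, and the correlations of same-numbered deviations ran from -0.23 to 0.43, so the numbers were not taken to pair the libraries. With the replicate block, 0, 2 and 0 WNT genes passed an FDR of 0.05 in CHD7_KO, HERVH_KD and HERVH_KO, and 9 between HERVH_KD and CHD7_KO. Of all 23474 genes, 471, 639, 16 and 2401 passed there. A crossed replicate block, chosen after seeing the data, gave 4 in HERVH_KD, FZD3 among them. It gave 3 between HERVH_KD and HERVH_KO and 1 between CHD7_KO and HERVH_KO. Of all 23474 genes, 1383, 1250 and 895 passed with that block. Among WNT genes that did not pass, the sign changed for at most 4 in CHD7_KO, 11 in HERVH_KD and 7 in HERVH_KO under any 1 alternative. The 7 untested genes had at most 15 counts in a library, and low expression and depth cannot be told apart there.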
